A study of Mus musculus with 2 samples.

Results

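The miR-17-92 and miR-106b-25 clusters are neighbouring groups of miRNA genes that are each read from a single primary transcript. Their 9 members were chosen by symbol in GENCODE annotation M21, as Mir17, Mir18, Mir19a, Mir20a, Mir19b-1 and Mir92-1 on chromosome 14 and Mir106b, Mir93 and Mir25 in an intron of Mcm7 on chromosome 5. They are 9 of the 2202 miRNA genes listed in the deposited tables. The tables hold microRNA-seq counts from tissue labelled as layer of hippocampus, from male B6CASTF1/J mice at an age of 2 months. These mice are a first-generation hybrid of the C57BL/6J and CAST/EiJ strains. Both samples belong to 1 group with no treatment named, as biological replicates 1 and 2 from separate biosamples that share 1 donor entry. Whether they came from separate animals is therefore not clear, and the SDs below measure only the spread of these samples. With 1 group, the comparisons are between the members, between the clusters and between the 2 libraries.

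A microRNA is processed from a hairpin within a longer transcript and represses messenger RNAs that pair with its seed, bases 2 to 8 of the mature strand. The miR-17-92 cluster, also called oncomiR-1, is activated by MYC and E2F factors, promotes proliferation and survival, and is needed for lung and B-cell development in mice. In the adult hippocampus it is known for its part in neurogenesis. The miR-106b-25 cluster is a paralog whose host gene Mcm7 encodes a subunit of the replicative DNA helicase, and it is known for promoting the growth of adult neural stem and progenitor cells. Another paralog, miR-106a-363, lies on the X chromosome.

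The members fall into 4 seed families, and the mature sequences are shown first because both the family sums and the limits of the counts follow from them. All 9 members matched a hairpin in RefSeq (build GRCm38.p6), with the same start and end as in annotation M21. Each sequence is the arm generally regarded as the main product, 5′ to 3′, with the seed in capitals. The deposited counts are per gene and do not separate the hairpin arms.
miR-17-5p: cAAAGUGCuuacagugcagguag
miR-20a-5p: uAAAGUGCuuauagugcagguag
miR-106b-5p: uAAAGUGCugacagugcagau
miR-93-5p: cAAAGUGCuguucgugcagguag
miR-18a-5p: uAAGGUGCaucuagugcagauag
miR-19a-3p: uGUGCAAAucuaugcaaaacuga
miR-19b-3p: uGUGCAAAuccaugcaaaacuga
miR-92a-3p: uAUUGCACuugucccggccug
miR-25-3p: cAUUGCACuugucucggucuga

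Mir17, Mir20a, Mir106b and Mir93 share the miR-17 seed, AAAGUGC, and differ only outside it. Counted from 1 at the 5′ end with miR-17-5p as the reference, miR-20a-5p differs by C1U and C12U. On the same count miR-93-5p differs from miR-17-5p at 4 of 23 bases, U10G, A11U, C12U and A13C. miR-106b-5p is 2 bases shorter and differs from miR-17-5p at 3 of the 21 bases compared, C1U, U10G and G20A. Mir18 alone has the miR-18 seed, AAGGUGC. The miR-19 seed, GUGCAAA, belongs to Mir19a and Mir19b-1, whose mature strands differ at 1 base, U11C with miR-19a-3p as the reference. Mir92-1 and Mir25 share the miR-25/92 seed, AUUGCAC, and miR-25-3p differs from miR-92a-3p by U1C, C14U and C18U, with 1 further base at its end. The mature strand is not unique for 2 members, since miR-19b-3p is also made from Mir19b-2 and miR-92a-3p from Mir92-2, both on the X chromosome.

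In annotation M21 (mm10) the miR-17-92 hairpins span 836 nt of the plus strand, chr14:115043671-115044506, all within exon 2 of the noncoding gene Mir17hg, and 35 to 96 nt separate neighbours. Their order from the 5′ end is Mir17, Mir18, Mir19a, Mir20a, Mir19b-1 and Mir92-1. The miR-106b-25 hairpins span 498 nt of the minus strand, chr5:138165321-138165818, in the order Mir106b, Mir93 and Mir25, with gaps of 118 and 126 nt. They lie in intron 13 of the 15-exon transcript Mcm7-201. Mir93 and Mir25, but not Mir106b, also overlap exon 1 of Mcm7-202, a transcript annotated as a retained intron. No other listed miRNA gene overlaps a member on either strand, and none of the 9 had an opposite-strand count in either library.

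Replicate 1 held 2322520 counts on miRNA genes, of 6441333 reads, and replicate 2 held 3414105, of 10003856 reads. Reads mapped to several places made up 42.6% and 46.0% of the libraries and are in no gene's count. Levels are miRNA-gene counts scaled to a sum of 1000000 per library (CPM) and not divided by length, because each read is 1 short RNA whatever the length of the hairpin. Detection meant reaching 2 CPM in each library, which held for 401 of the 2202 genes (18.2%) and for 7 of the 9 members. A count of 0 allows up to 3 counts, or 1.29 and 0.879 CPM in replicates 1 and 2. Intervals and this limit cover counting error only. Folds between genes compare counts, and whether each sequence enters a library equally well was not tested. The spread of the replicates cannot show a bias that both libraries share.

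Mir17, the 5′ member of miR-17-92, represses regulators of the cell cycle and of apoptosis through its seed. It was at 620 CPM in replicate 1 (1440 counts, Wilson 95% interval 589 to 653) and 458 CPM in replicate 2 (1565 counts, 436 to 482), a mean of 539 ± 114 CPM (SD, n = 2). Its intervals did not overlap. Mir17 had the highest value of its cluster in both libraries. Its ratio to Mir92-1, computed after the values were seen, was 1.92 in replicate 1 and 1.02 in replicate 2, which did not exceed the replicate spread. Reads of miR-92a-3p that also fit Mir92-2 are not in the Mir92-1 count, so this order holds for placed reads only. Mir92-1, the 3′ member, whose product miR-92a is well known in endothelial cells, was at 323 CPM (751 counts, 301 to 347) and 448 CPM (1529 counts, 426 to 471), a mean of 386 ± 88.0 CPM (SD, n = 2). Its intervals did not overlap either, with the higher value in replicate 2. Mir20a, which shares the miR-17 seed, was at 239 and 228 CPM (556 and 780 counts), a mean of 234 ± 7.73 CPM (SD, n = 2), and its intervals overlapped. Mir18, whose product is known for repressing Ctgf and related antiangiogenic factors, stood far below Mir17, at 28.4 and 38.1 CPM (66 and 130 counts), a mean of 33.2 ± 6.83 CPM (SD, n = 2).

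Mir19a and Mir19b-1, known as the main oncogenic members of the cluster in lymphoma, were not detected. Mir19a had 0 counts in replicate 1 and 3 in replicate 2, and Mir19b-1 had 0 and 1. Both therefore lay at or under the limit of 3 counts in each library, and no fold is given for them. By placed reads, hairpins of the same transcript ranged from under 1.29 CPM to 620 CPM in replicate 1. Reads of miR-19b-3p that also fit Mir19b-2 are not in the Mir19b-1 count.

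Within miR-106b-25, Mir93 was the leading member and the highest of all 9. It was at 1220 CPM in replicate 1 (2834 counts, 1176 to 1266) and 1352 CPM in replicate 2 (4617 counts, 1314 to 1392), a mean of 1286 ± 93.4 CPM (SD, n = 2). It ranked 80 and 78 among the 2202 listed genes. Mir106b, its 5′ neighbour with the same seed, was at 347 and 424 CPM (807 and 1448 counts), a mean of 386 ± 54.2 CPM (SD, n = 2). Mir25, at the 3′ end of the cluster, was at 29.7 CPM (69 counts, 23.5 to 37.6) and 55.4 CPM (189 counts, 48.0 to 63.8), a mean of 42.5 ± 18.1 CPM (SD, n = 2). Mir93 exceeded Mir106b 3.51-fold and 3.19-fold in replicates 1 and 2, and exceeded Mir25 40.8-fold and 24.4-fold. Both differences were larger than the replicate spread, by the rule that both libraries give the same direction and the mean log2 ratio exceeds 2 SD. With 2 libraries the smallest two-sided sign-flip p is 0.5, so ratios are given without a p. The SD rests on 2 values, so passing this rule is not a test of significance.

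**Figure D1:**
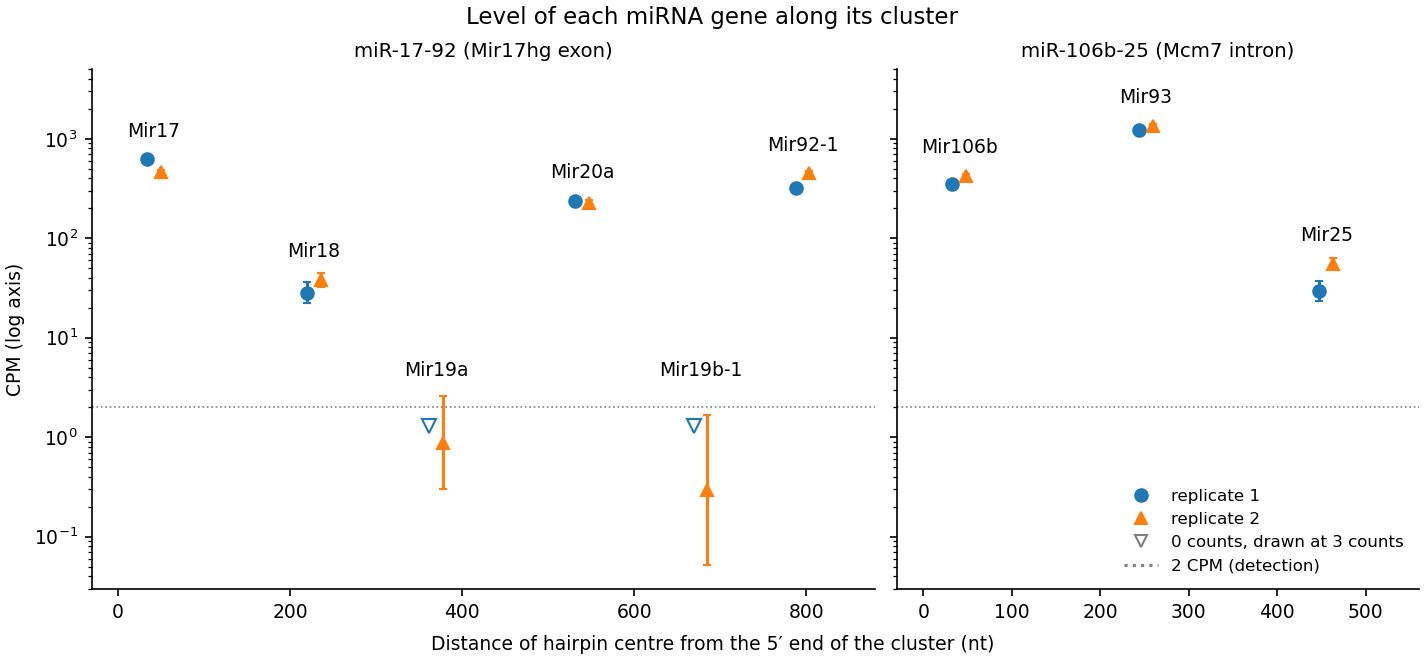
CPM on a log axis of each member against the distance (nt) of its hairpin's centre from the 5′ end of its cluster, in replicate 1 (blue circles) and replicate 2 (orange triangles) with Wilson 95% intervals. Open triangles mark 0 counts, drawn at the limit of 3 counts, and the dotted line is 2 CPM. Mir19a and Mir19b-1 lie near or below the line, between neighbours at 28.4 to 448 CPM.

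By mean level of placed reads the 7 detected members were ordered Mir93, Mir17, Mir106b, Mir92-1, Mir20a, Mir25 and Mir18, over a 38.7-fold range. Of them, 5 lay above the median of all detected genes, 87.0 CPM. Of the 6 neighbouring pairs in this order, 2 differed beyond the replicate spread. Mir93 exceeded Mir17 1.97-fold and 2.95-fold in replicates 1 and 2, and Mir20a exceeded Mir25 8.01-fold and 4.12-fold. With an SD pooled over all detected genes in place of that of the pair, 1 pair passed, Mir20a over Mir25. Mir106b and Mir92-1 had nearly the same mean, and their order changed between the libraries, with Mir106b 1.07-fold higher in replicate 1 and at 0.947 of Mir92-1 in replicate 2. The gaps of Mir17 to Mir106b (1.78-fold and 1.08-fold), Mir92-1 to Mir20a (1.35-fold and 1.96-fold) and Mir25 to Mir18 (1.05-fold and 1.45-fold) did not exceed 2 SD.

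Summed over members, miR-106b-25 had more placed reads than miR-17-92, with 3 hairpins against 6. It reached 1597 CPM in replicate 1 and 1832 CPM in replicate 2, a mean of 1715 ± 166 CPM (SD, n = 2). miR-17-92 reached 1211 and 1174 CPM, a mean of 1193 ± 26.3 CPM (SD, n = 2). The ratio of miR-106b-25 to miR-17-92 was 1.32 and 1.56 and passed the rule of 2 SD. Its mean log2 was 0.521 with an SD of 0.172. The SD of log2 level pooled over all detected genes was larger, 0.474, and this ratio was not tested with it. This order holds for placed reads only. The mature strands of Mir19b-1 and Mir92-1 lie wholly inside runs shared with X-linked copies, and none of the miR-106b-25 strands does so among the hairpins compared. Multimapping reads are in no gene's count, so the miR-17-92 sum may be too low, and the order with those reads included was not tested. Together the 9 members held 0.291% of miRNA-gene counts.

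The make-up of miR-17-92 differed between the libraries more than its sum did. Mir17 gave 51.2% of the cluster's counts in replicate 1 (Wilson 95% interval 49.3 to 53.0) and 39.0% in replicate 2 (37.5 to 40.6). Mir92-1 gave 26.7% (25.1 to 28.4) and 38.1% (36.7 to 39.7). These are shares of placed reads, without the miR-92a-3p reads that also fit Mir92-2. Mir20a kept its share, at 19.8% and 19.5%, and Mir18 gave 2.35% and 3.24%. For Mir19a and Mir19b-1 a count of 0 in replicate 1 allows a share of up to 0.107% of the 2813 counts. In miR-106b-25 the shares were closer, at 76.4% and 73.8% for Mir93, 21.8% and 23.2% for Mir106b, and 1.86% and 3.02% for Mir25.

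**Figure D2:**
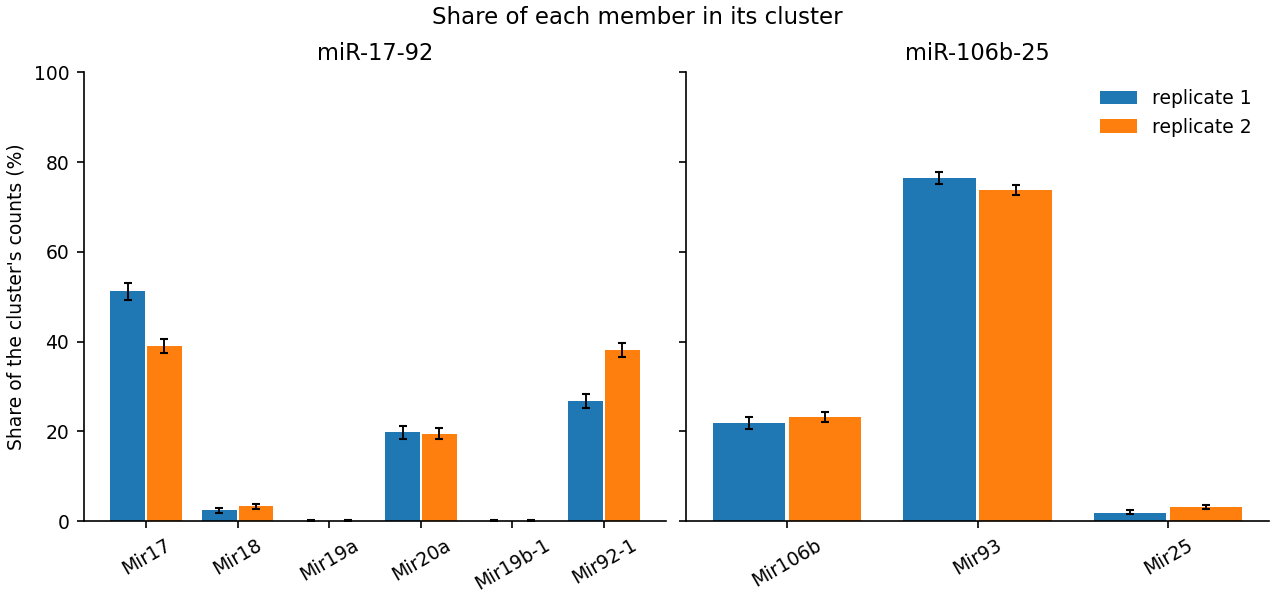
Share (%) of each cluster's counts held by each member, in 5′ to 3′ order, in replicate 1 (blue) and replicate 2 (orange), with Wilson 95% intervals that cover counting error only. Mir17 held 51.2% and 39.0% of miR-17-92, beside 26.7% and 38.1% for Mir92-1, and Mir93 led miR-106b-25 with 76.4% and 73.8%.

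The hairpins of the 2 members with a non-unique mature strand are shown beside their X-linked copies, since a read that lies wholly inside the stretch they share has more than 1 place to map. Capitals mark the longest run of bases common to each pair.
Mir19b-1: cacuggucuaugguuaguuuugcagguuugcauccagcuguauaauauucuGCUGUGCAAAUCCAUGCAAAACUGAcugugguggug
Mir19b-2: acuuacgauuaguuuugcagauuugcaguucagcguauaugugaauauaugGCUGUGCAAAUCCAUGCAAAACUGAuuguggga
Mir92-1: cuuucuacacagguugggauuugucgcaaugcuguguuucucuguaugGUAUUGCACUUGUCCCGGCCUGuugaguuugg
Mir92-2: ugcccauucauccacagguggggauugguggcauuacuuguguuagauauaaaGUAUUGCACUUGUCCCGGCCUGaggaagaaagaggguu

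The Mir19b pair shares 25 nt, which covers the 23 nt mature strand with 2 bases to spare, and the Mir92 pair shares 22 nt around a mature strand of 21 nt. The counts of the Mir92 pair were nevertheless very unlike, while those of the Mir19b pair were too low to compare. Mir19b-2 had 0 counts in both libraries, beside 0 and 1 for Mir19b-1. Mir92-1 had 751 and 1529 counts and Mir92-2 had 24 and 45, so Mir92-1 was 30.7-fold and 33.6-fold higher, beyond the replicate spread. RefSeq gives a hairpin under the same symbol for 968 of the 2202 listed genes, and sequences were compared only with RefSeq entries. The mature strand of Mir19a is in no other hairpin of that table, and its longest run shared with one is 13 nt, with Mir19b-2. The other 6 members also share no more than 17 nt with any other hairpin of the RefSeq table. How many of the multimapping reads came from miR-19b or miR-92a was not tested.

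By placed reads, the miR-17 seed led the clusters. Its 4 members together had 2427 and 2463 CPM in replicates 1 and 2, a mean of 2445 ± 25.6 CPM (SD, n = 2), which was 86.4% and 82.0% of the counts of the 9 members. Mir93 alone gave 50.3% and 54.9% of this family sum, and Mir17 gave 25.5% and 18.6%. Mir106b gave 14.3% and 17.2%, and Mir20a 9.86% and 9.27%. The miR-25/92 seed summed to 353 and 503 CPM, a mean of 428 ± 106 CPM (SD, n = 2), of which Mir92-1 gave 91.6% and 89.0%. The miR-17 sum exceeded the miR-25/92 sum 6.87-fold and 4.89-fold, beyond the replicate spread. The miR-19 seed had 0 and 4 counts in all. Mature strands of Mir92-1 and Mir19b-1 lie inside runs shared with X-linked copies, and multimapping reads are in no gene's count. The miR-25/92 and miR-19 sums may therefore be too low. The shares and the ratio with those reads included were not tested.

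Other listed genes with the same seeds, as far as RefSeq gives their mature strands, were then set beside the clusters. Of 7 such genes with the miR-17 seed, the 4 cluster members held 99.8% and 99.7% of the summed CPM in replicates 1 and 2. The remaining counts were those of Mir106a and Mir20b, while Mir6383 had 0 counts. For the miR-25/92 seed, in contrast, Mir92-1 and Mir25 held 5.35% and 7.15% of the CPM of its 7 such genes. Most came from Mir92b (ENSMUSG00000076255.2), a gene on chr3:89227116-89227198 of mm10 that overlaps no other annotated gene. Its mature strand, shown for comparison with miR-92a-3p above, differs from it by U10C and G21C over the 21 bases compared.
miR-92b-3p: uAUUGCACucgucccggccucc

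Mir92b had 14433 and 22205 counts, or 6214 and 6504 CPM, a mean of 6359 ± 205 CPM (SD, n = 2). It exceeded Mir92-1 and Mir25 together 17.6-fold in replicate 1 and 12.9-fold in replicate 2, a ratio beyond the replicate spread. Reads of miR-92a-3p that fit inside the run shared with Mir92-2 are not in these counts, and their part in the ratio and in the shares above was not tested. Mir32, with the same seed, was at 12.9 and 12.6 CPM, and Mir367, known from pluripotent stem cells, had 0 counts.

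**Figure D3:**
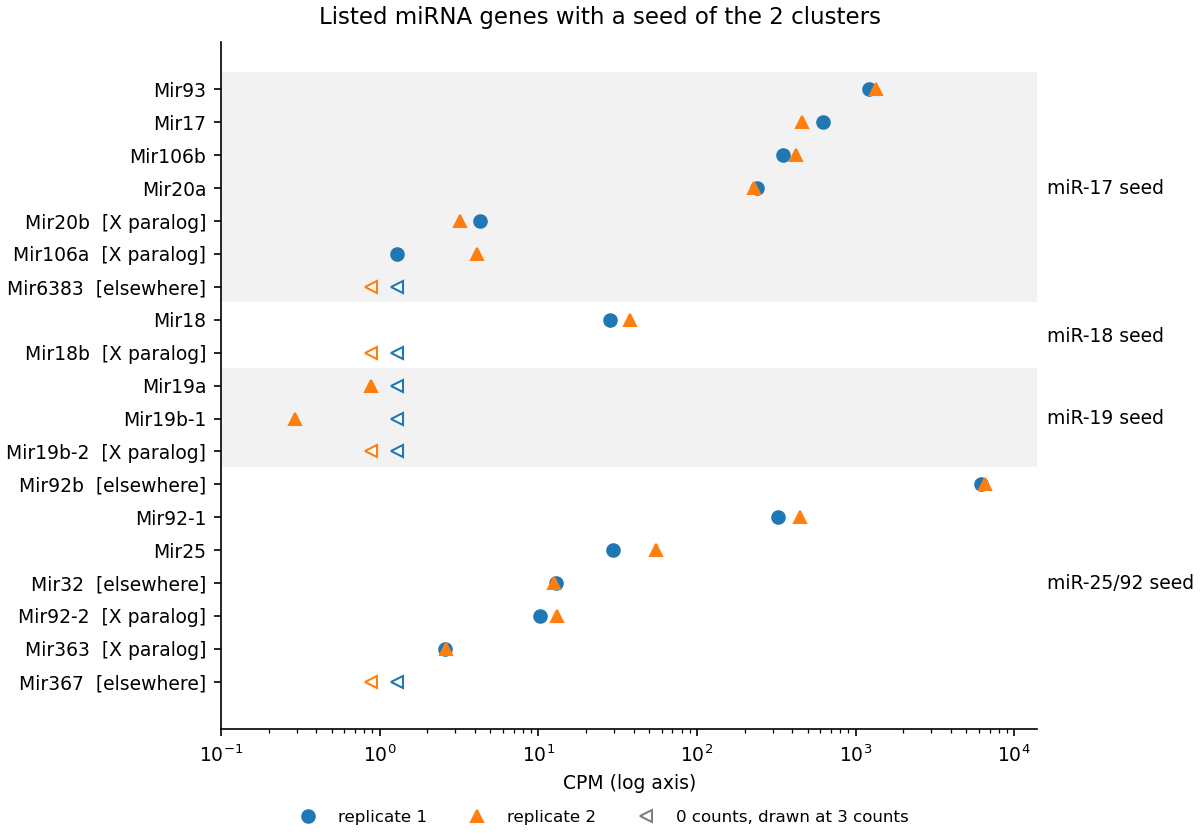
CPM on a log axis of the listed miRNA genes whose mature strand in RefSeq has a seed of the clusters, in replicate 1 (blue circles) and replicate 2 (orange triangles), grouped by seed, with open triangles for 0 counts drawn at the limit of 3 counts. Cluster members lead the miR-17 seed, while Mir92b, at 6214 and 6504 CPM, leads the miR-25/92 seed.

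The X-linked miR-106a-363 cluster, the closest relative of these clusters, had few counts, and 3 of its 6 genes were detected. Its 6 genes together had 43 and 79 counts, or 18.5 and 23.1 CPM, a mean of 20.8 ± 3.27 CPM (SD, n = 2). By placed reads, the miR-17-92 sum was 64.7-fold and 50.4-fold higher and the miR-106b-25 sum 85.3-fold and 78.7-fold higher, both beyond the replicate spread. Mature strands of Mir19b-2 and Mir92-2 lie inside runs shared with miR-17-92 members, and multimapping reads are in no gene's count. The X-linked sum may therefore be too low, as may the miR-17-92 sum. These folds with those reads included were not tested. Mir92-2 gave most of those X-linked counts, 24 of 43 and 45 of 79. Mir106a, which differs from miR-17-5p by U10A alone, had 3 and 14 counts beside 1440 and 1565 for Mir17. Mir20b had 10 and 11 counts, and Mir20a was 53.0-fold and 67.9-fold higher. Mir363 had 6 and 9 counts, and Mir18b had 0 in both. Tissue was counted in bulk, so fewer cells of a type that makes a miRNA and less of it per cell cannot be told apart.

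Between the libraries, 5 of the 7 detected members differed beyond counting error by the two-sided exact binomial test with Benjamini-Hochberg adjustment over all 401 detected genes. That test called 50.9% of the detected genes, so such calls were common at this depth and nothing particular to the members is read from their count. It compares 2 libraries and not conditions. Higher values in replicate 2 were called for 4 members (28.2% of all detected genes) and a lower value for 1 (22.7%). Mir25 had the widest difference, 1.82-fold higher in replicate 2 (95% interval 1.38 to 2.45, adjusted exact binomial p = 3e-05). Mir92-1 was 1.36-fold higher (1.25 to 1.49, adjusted exact binomial p = 9.55e-12), Mir106b 1.20-fold (1.10 to 1.31) and Mir93 1.09-fold (1.04 to 1.14). Mir17 went the other way and was 1.38-fold higher in replicate 1 (1.28 to 1.48, adjusted exact binomial p = 1.48e-17). The ratios of Mir18, 1.31 (0.972 to 1.80), and Mir20a, 0.938 (0.840 to 1.05), did not pass the test.

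By this test, members cut from the same transcript were called in both directions, with Mir17 lower and Mir92-1 higher in replicate 2. So were members of the miR-17 seed, with Mir17 lower and Mir93 and Mir106b higher. The median difference of the 7 detected members was 1.31-fold, beside 1.26-fold over all detected genes. Of the members 6 of 7 lay within 1.5-fold, as did 76.3% of all detected genes. When a dispersion of 0.01 was assumed in an edgeR exact test in place of counting error alone, only Mir25 passed (adjusted p = 0.0176), and 18.0% of the detected genes did. The adjusted p of the edgeR exact test was then 0.136 for Mir17, 0.165 for Mir92-1, 0.52 for Mir106b and 0.851 for Mir93.

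**Figure D4:**
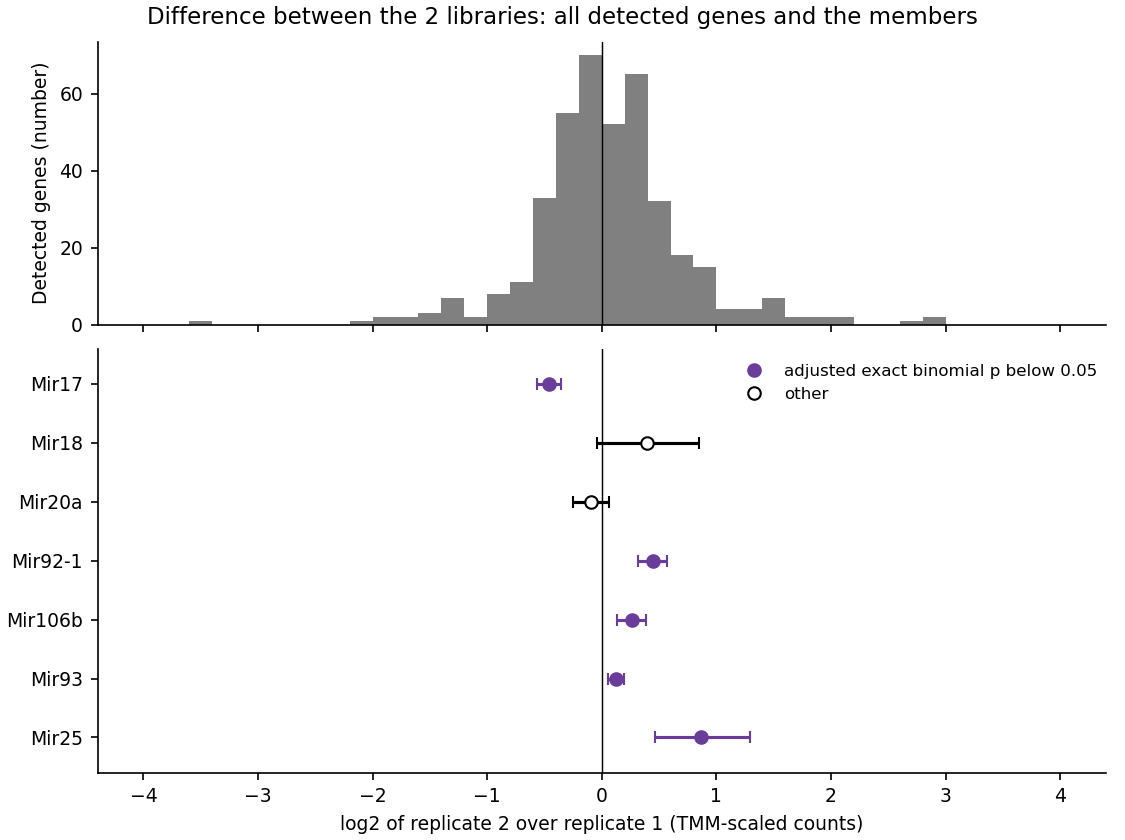
Top, number of the 401 detected genes by log2 of replicate 2 over replicate 1. Bottom, the same log2 ratio of the 7 detected members with 95% intervals, in purple where the adjusted exact binomial p is below 0.05. Mir25 is farthest to the right at 0.87 and Mir17 farthest to the left at -0.46.

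The libraries also differed in lists of cell type markers, whose part in these differences was not tested. The neuron list, with 10 of 12 genes at 2 CPM or more in both libraries, summed to 33052 and 47686 CPM in replicates 1 and 2. Most of that difference lay in 1 gene, Mir128-1, at 4518 and 16906 CPM. Mir128-2 was at 1113 and 3034 CPM and Mir137 at 8697 and 12170 CPM. Other genes of the list were lower in replicate 2. Mir132 was at 11112 and 10719 CPM, Mir138-1 at 4809 and 2633 CPM and Mir138-2 at 2687 and 2104 CPM. The sum therefore does not show a difference shared by the neuron list. Of the defining genes of that list, the Mir124a copies had 7 counts in replicate 1 and 16 in replicate 2. Mir124a, Mir9, Mir128 and Mir138 are each listed at more than 1 locus, and reads that map to several places are in no gene's count. Low counts of Mir124a and Mir9 therefore do not show that their products are scarce. The endothelial list, with 1 of 2 genes at that level, was at 14889 and 12474 CPM, all from Mir126a, while Mir126b had 0 counts. The erythrocyte list, all 3 genes at that level, was at 1922 and 1149 CPM, with Mir451a lower in replicate 2 (1807 and 1007 CPM) and Mir144 higher (94.7 and 121 CPM). The list of leukocytes and microglia, 4 of 5 genes, was at 1260 and 1598 CPM. Mir150 (569 and 966 CPM), Mir142 (63.3 and 93.1 CPM) and Mir223 (0.431 and 7.91 CPM) were higher in replicate 2. Mir146 (585 and 497 CPM) and Mir155 (43.1 and 33.4 CPM) were lower. Mir122 of liver was at 52.1 and 40.7 CPM, and the muscle list had 55.1 and 24.0 CPM from Mir206 alone, with 4 of 5 genes at 0. Those 4 are copies of Mir1a and Mir133a, also listed at several loci, so the same limit holds for them.

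The detected genes outside the clusters with the most similar levels, by distance over log2(CPM + 1) in the 2 libraries, were named for 3 members. Mir383 (1327 and 1419 CPM) and Mir341 (1322 and 1274 CPM) were nearest to Mir93. Mir673 (589 and 454 CPM) and Mir455 (596 and 479 CPM) were nearest to Mir17. Mir24-2 (26.3 and 49.5 CPM) and Mir592 (24.5 and 48.9 CPM) were nearest to Mir25. This likeness rests on only 2 libraries.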

How the data were processed

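MicroRNA-seq counts from 2 samples of 1 group were used. The deposited values were whole-number counts of reads per miRNA gene, not normalized, in 1 table per library, with assembly mm10 and annotation M21 per the deposited file descriptions. The aligner, the counting program and their parameters are not given in the sources used here. Per the labels the fragments were under 30 nt. The same-strand column was used. The 4 rows that name no gene stayed out of library sizes and tests; in that column they held 16.2% unmapped, 42.6% multimapping and 5.16% no-feature reads in replicate 1, and 15.1%, 46.0% and 4.70% in replicate 2.

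Counts were scaled to CPM over all 2202 genes. Ratios added 0.5 to each count. The rule of 2 SD was planned for the ratio of the clusters and for neighbouring pairs, and the other ratios were outside that plan. Neighbouring pairs were ordered by the same values that the rule was then applied to. The exact binomial test (SciPy 1.17.1) used TMM factors of edgeR 4.0.16 (0.991 and 1.01) and called genes at an adjusted p below 0.05. It was tested on data simulated with counting error only, which cannot show how it behaves with further variation between libraries. DESeq2 1.42.0 size factors, other filters, totals and strand columns were alternatives. Named genes were the 9 members, the X-linked paralogs, all genes with a member's seed in RefSeq, and the 2 nearest in level to Mir93, Mir17 and Mir25. Mature and hairpin sequences were from RefSeq. The members and lists were chosen with earlier results of these data known.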

Additional observations from a re-analysis of the deposited data

How the results depend on the processing

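CPM is a share of placed reads, so the levels depend on the total. Scaled to all reads of a library, reads outside miRNA genes included, the sums were 419 per 1000000 reads for miR-17-92, 601 for miR-106b-25, 858 for the miR-17 seed, 11.6 for the miR-18 seed and 150 for the miR-25/92 seed. With the 5 most abundant genes left out of the total they were 2101, 3012, 4304, 58.3 and 750 CPM. The unstranded column gave 1288 CPM for miR-17-92 and 2640 CPM for the miR-17 seed, since its total is smaller and the members' counts are the same. Without members whose mature strand is made at another locus, miR-17-92 fell to 807 CPM and the miR-25/92 seed to 42.5 CPM. Neither change can test the ratio of the clusters, since the members' counts are the same in the unstranded column and the members left out all belong to miR-17-92. Of the 6 neighbouring pairs, 1 in place of 2 passed with the pooled SD, and Mir106b over Mir92-1 was 0.947 without replicate 1 and 1.07 without replicate 2. With edgeR's exact test at a dispersion of 0.01, 1 member in place of 5 differed between the libraries. DESeq2 size factors, no scaling factor, a filter of 10 CPM, no filter and the unstranded column each called the same 5 members. The miR-19 genes had 0 to 3 counts, and the cause was not tested. No paired analysis was possible because both samples belong to 1 group.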
